A study of Mus musculus with 6 samples.

Results

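Small leucine-rich proteoglycans (SLRPs) are secreted matrix proteins built from a curved array of leucine-rich repeats, and many of them carry glycosaminoglycan chains. They bind collagen fibrils, influence how fibrils assemble and how thick they become, and hold growth factors such as TGF-β in the matrix. In cartilage they sit on and between fibrils of type II collagen, and they are grouped into classes by sequence and gene structure. The 10 SLRP genes described here were taken by symbol, with no measured value in the rule but with earlier results of these data known. All 10 were found among the 22032 genes of the table. They were *Dcn*, *Bgn* and *Aspn* of class I, *Fmod*, *Lum*, *Prelp* and *Omd* of class II, and *Epyc* and *Ogn* of class III. *Chad* is placed in class IV.

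Transcript abundance was measured by RNA sequencing in 6 samples of mouse chondrocytes, 3 labelled embryonic cartilage and 3 labelled adult cartilage, and the comparison asks how chondrocytes of the joint differ between the stages. The labels give the knee as the source of all 6 samples. The embryonic cells came from embryonic day 16.5 by the study's text (the label gives 16.5 as weeks) and were sorted as lineage-negative, ALP-negative and BMPR1B+. The adult cells came from male B6 mice 2 months old and were sorted as CD31-CD45-Ter119-ALP-BMPR1B+, so both stages share selection for the receptor BMPR1B and removal of cells with surface alkaline phosphatase. The strain and sex of the embryos and the number of animals behind each sample are not given in the sources used here. Values are transcripts per 1000000 (TPM), which are scaled for transcript length and can be set side by side between genes. They keep no read depth. Read totals, which the study says are in its supplement, were not used here, so the counting error behind a value was not estimated.

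The chondrocyte label was checked against 12 markers, of which 2 were higher in adult, 9 were lower and 1 did not pass. Their summed level was 27892 to 29093 TPM in embryonic and 9578 to 12711 TPM in adult samples, *Col2a1*, the main cartilage collagen, was between 3166 and 7084 TPM in the adult samples, and *Matn1*, a matrilin of non-articular cartilage, was listed at 0 in all 3 of them. The higher markers were *Comp*, at 553 to 606 TPM in embryonic and 1766 to 2662 TPM in adult samples, and *Sox9*, at 392 to 465 and 589 to 901 TPM. The marker lists of muscle, endothelium and leukocytes, each taken alone, summed to at most 72.2 TPM in any sample. The erythroid list summed to 257 TPM in embryonic sample 1 and at most 43.6 TPM elsewhere. The tendon and fibroblast list was higher, at 13049 to 15418 TPM in embryonic and 1301 to 2415 TPM in adult samples. The osteoblast list summed to 15.7 to 51.8 TPM in embryonic and 254 to 458 TPM in adult samples. In cell populations such as these, fewer cells of a type and less RNA per cell cannot be told apart.

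Of the 10 SLRP genes, 4 rose and 4 fell between the embryonic and the adult samples, and 2 did not pass the test. *Chad* and *Dcn* rose 42.3-fold and 21.7-fold to become the most abundant of the 10 in adult cells, *Omd* rose 13.3-fold and *Prelp* 3.78-fold, whereas *Epyc*, *Aspn*, *Ogn* and *Lum* fell. All 10 passed the filter of a mean of 1 TPM over the 6 samples, and each did so in each stage separately. The 8 called genes made up 80.0% of the family, against 45.3% of the 13125 genes tested that were called by limma at an adjusted p under 0.05 (23.9% higher in adult and 21.4% lower). The stages did not overlap for 9 of the 10 genes, 5 of them higher and 4 lower in adult, against 56.5% of all genes tested (30.7% higher and 25.9% lower). The median absolute log2 change was 3.55 over the family and 0.78 over all genes tested, while the median signed change was 0.32 and 0.16. An absolute log2 change over 4 was seen in 4 of the 10 genes and in 2.0% of all genes tested. The 10 genes were chosen with earlier results of these data known, so these contrasts describe the family and do not test for an excess.

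**Figure D1:**
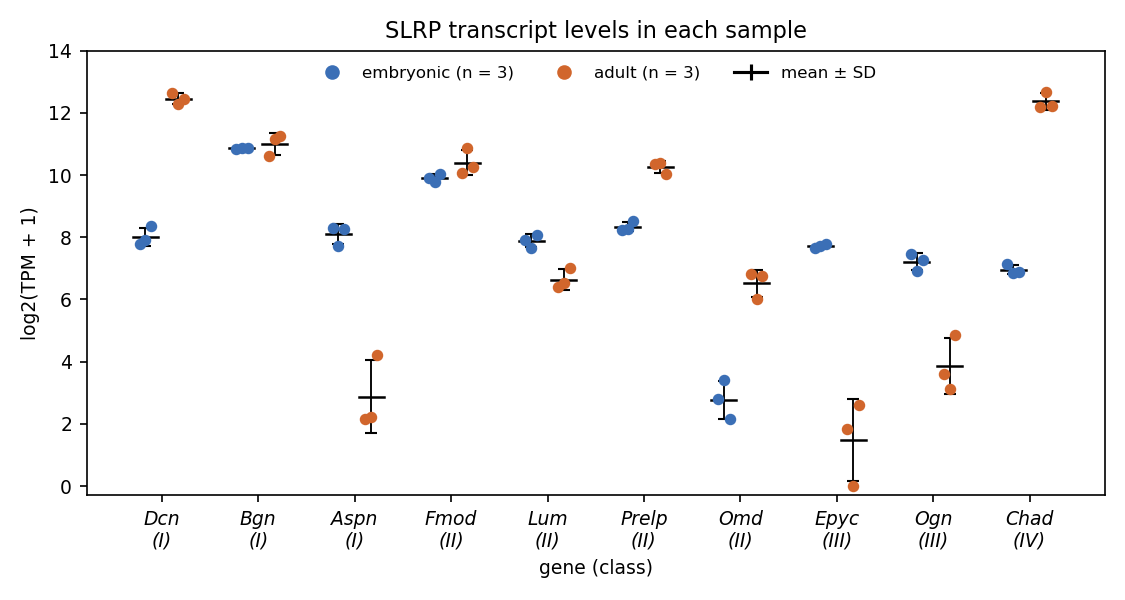
Level of each SLRP gene as log2(TPM + 1) in every sample, with embryonic and adult samples as separate points (3 each), black bars giving the mean ± SD, and the class in brackets. *Dcn* and *Chad* moved from means of 8.01 and 6.96 to 12.46 and 12.37, the means of *Bgn* were 10.86 and 11.01, and *Aspn*, *Epyc* and *Ogn* fell to means under 4.

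Decorin, encoded by *Dcn* (ENSMUSG00000019929, chr10:97479609-97518143, plus strand, GRCm38), coats collagen fibrils through its protein core, carries a chondroitin or dermatan sulfate chain and binds TGF-β. Embryonic samples 1 to 3 held 217, 241 and 326 TPM of its transcript, against 6348, 5026 and 5549 TPM in adult samples 1 to 3. Every adult sample lay far above every embryonic one, and in the adult samples *Dcn* was between the 8th and 12th most abundant of all genes. On the log2(TPM + 1) scale used for all fold changes here, the mean was 8.01 ± 0.30 (SD, n = 3) and 12.46 ± 0.17 (n = 3), a difference of 4.44 ± 0.171 (SE; limma, adjusted p = 5.8e-07).

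Biglycan, encoded by *Bgn* (ENSMUSG00000031375, chrX:73483602-73495933, plus strand), is the closest relative of decorin, carries a pair of glycosaminoglycan chains and can signal through toll-like receptors when released from the matrix. Its levels were 1827, 1869 and 1886 TPM in the embryonic and 1555, 2276 and 2461 TPM in the adult samples. The stages overlapped, since adult sample 1 lay below all embryonic samples and the other two adult samples above them. The log2 difference was 0.15 ± 0.176 (SE; 95% interval -0.25 to 0.54; limma, adjusted p = 0.525), and it was 0.35 without adult replicate 1 (adjusted p = 0.0293).

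Asporin, encoded by *Aspn* (ENSMUSG00000021388, chr13:49544443-49567565, plus strand), belongs to the same class but carries an aspartate stretch in place of a glycosaminoglycan chain, and it binds collagen and TGF-β. Embryonic levels were 314, 211 and 310 TPM, and adult levels were 3.49, 3.62 and 17.7 TPM. Adult sample 3 was the highest adult sample and still lay far below the lowest embryonic one. *Aspn* fell by 5.24 on the log2 scale (SE 0.501; limma, adjusted p = 7.63e-05), and by 5.92 without adult replicate 3. Within class I, then, *Dcn* rose, *Aspn* fell, and *Bgn* changed by less than the spread between the adult samples.

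Fibromodulin, encoded by *Fmod* (ENSMUSG00000041559, chr1:134037254-134048277, plus strand), is a keratan sulfate proteoglycan that binds collagen fibrils and affects their cross-linking. Its levels were 953, 887 and 1042 TPM in the embryonic and 1084, 1859 and 1220 TPM in the adult samples. The stages did not overlap, but embryonic sample 3 and adult sample 1 lay close together. The log2 difference was 0.49 ± 0.195 (SE; 95% interval 0.05 to 0.94) and missed the threshold (limma, adjusted p = 0.0678). It passed without adult replicate 1 (0.65, adjusted p = 0.0244), and its call also depended on the scaling.

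Lumican, encoded by *Lum* (ENSMUSG00000036446, chr10:97565128-97572703, plus strand), shares its site on collagen with fibromodulin and is best known from the cornea, where it keeps fibrils thin. Its levels were 241, 202 and 270 TPM in the embryonic and 82.6, 90.5 and 129 TPM in the adult samples, with no overlap and with adult sample 3 the highest of its stage. *Lum* fell by 1.25 on the log2 scale (SE 0.192; limma, adjusted p = 0.001).

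PRELP, encoded by *Prelp* (ENSMUSG00000041577, chr1:133910304-133921414, minus strand), links collagen to heparan sulfate chains of the basement membrane and the pericellular matrix. Its levels were 302, 307 and 366 TPM in the embryonic and 1322, 1335 and 1047 TPM in the adult samples. The adult samples all lay well above the embryonic ones, and the difference was 1.92 ± 0.141 (SE, log2; limma, adjusted p = 1.91e-05). An antisense gene, *Gm15851*, shares 350 exonic bases with *Prelp*, and reads of the pair cannot be assigned without strand.

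Osteoadherin, encoded by *Omd* (ENSMUSG00000048368, chr13:49582462-49592822, plus strand), is a keratan sulfate proteoglycan best known from bone, where it is found in the mineralised matrix. It was the least abundant of the 10 in the embryonic samples, at 5.89, 9.54 and 3.5 TPM, and reached 111, 63.4 and 106 TPM in adult cells. The rise was 3.74 ± 0.355 (SE, log2; limma, adjusted p = 7.51e-05), larger than the spread of either stage.

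The summed level of 8 osteoblast markers was higher in adult beside *Omd*, but the markers did not move as a group. Of 7 tested, 3 were higher in adult, 1 was lower and 3 did not pass, and the sum was 15.7 to 51.8 TPM in embryonic and 254 to 458 TPM in adult samples. *Bglap*, the osteocalcin gene, had 0 TPM in each of the 3 embryonic samples, against 26.8, 15.8 and 83.9 TPM in adult ones, while *Sost* was at 0 in all 6 samples. *Ibsp*, which encodes bone sialoprotein, was at 0.148, 29.6 and 5.07 TPM and then at 316, 235 and 308 TPM. *Dmp1*, a matrix gene of late osteoblasts and osteocytes, fell by 2.92 (log2; limma, adjusted p = 0.00495), and *Sp7*, an osteoblast transcription factor, was at most 3.26 TPM in any sample and did not pass. Their part in the rise of *Omd* was not tested.

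Epiphycan, encoded by *Epyc* (ENSMUSG00000019936, chr10:97644068-97682454, plus strand), carries dermatan sulfate and is known from epiphyseal and growth plate cartilage. Its levels were 201, 211 and 221 TPM in the embryonic samples, among the tightest of the family, and 2.58 and 5.04 TPM in adult samples 1 and 3, with adult sample 2 listed at 0. *Epyc* fell by 6.25 on the log2 scale (SE 0.558; limma, adjusted p = 5.43e-05), the largest fall of the 10, and 34 of all genes tested fell more. The log2 difference was -5.51 without adult replicate 2, the sample at 0, -6.81 without adult replicate 3 and -7.57 with a pseudocount of 0.1. The gene shares 1041 exonic bases with the antisense gene *Gm10754*, and reads of the pair cannot be assigned without strand.

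Osteoglycin, also called mimecan and encoded by *Ogn* (ENSMUSG00000021390, chr13:49608046-49624501, plus strand), takes part in collagen fibril assembly in cornea, bone and connective tissue. Embryonic levels of 174, 121 and 155 TPM compared with adult levels of 11.1, 7.66 and 27.9 TPM. As with *Aspn*, *Lum* and *Epyc*, adult sample 3 was the highest of its stage and remained below all embryonic samples. *Ogn* fell by 3.37 on the log2 scale (SE 0.396; limma, adjusted p = 0.000238).

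Of 12 markers of tendon and fibroblasts, 8 were lower in adult beside *Aspn*, *Lum*, *Epyc* and *Ogn*, 1 was higher and 3 did not pass. Their summed level was 13049 to 15418 TPM in embryonic samples and 1301, 2016 and 2415 TPM in adult samples 1 to 3. *Tnmd*, the tendon gene tenomodulin, was at 262, 108 and 162 TPM and then at 0, 2.11 and 0.703 TPM, and *Scx*, a tendon transcription factor, was listed at 0 in adult samples 1 and 3 and at 4.59 TPM in adult sample 2. *Thbs4*, a thrombospondin of tendon, was higher in adult, with a log2 difference of 0.61 (limma, adjusted p = 0.0467). This call was lost under several alternatives, among them a pseudocount of 0.1, no filter on low values, and leaving out adult replicate 1 or 3. *Mkx*, *Pdgfra* and *Thy1* did not pass, with differences of -0.19, -0.33 and -0.47. Of the 12 chondrocyte markers, 9 were also lower in adult, with a median log2 difference of -2.67 against -2.61 for the tendon and fibroblast markers. Over all genes tested, 21.4% were called lower. The part of either list in the falls was not tested.

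Chondroadherin, encoded by *Chad* (ENSMUSG00000039084, chr11:94565047-94569127, plus strand), binds type II collagen and integrins of chondrocytes and carries no chondroitin sulfate chain. Its levels were 139, 115 and 118 TPM in the embryonic and 4667, 6557 and 4803 TPM in the adult samples. Only *Omd* lay clearly below it in the embryonic cells, whereas in the adult samples it was between the 7th and 13th most abundant of all genes. The rise was 5.40 ± 0.158 (SE, log2; limma, adjusted p = 1.31e-07), and 34 of all genes tested rose more.

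**Figure D2:**
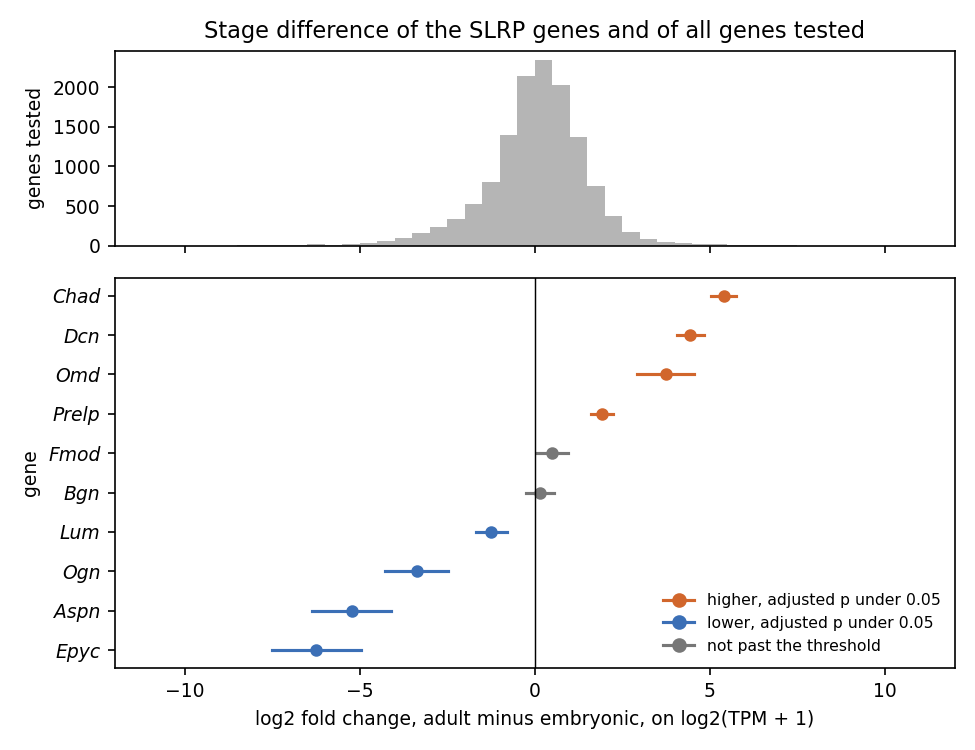
The upper panel counts the 13125 genes tested by log2 fold change (adult minus embryonic, on log2(TPM + 1)), and the lower panel places the 10 SLRP genes on the same axis with 95% intervals from limma. The interval of *Bgn* spans 0, that of *Fmod* begins at 0.05, and the other 8 genes range from -6.25 (*Epyc*) to 5.40 (*Chad*).

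The summed level of the 10 transcripts was 4375, 4175 and 4697 TPM in the embryonic samples and 15188, 17217 and 15366 TPM in the adult samples, a ratio of the means of 3.61. This was 0.442% ± 0.0263 (SD, n = 3) of all TPM in the embryonic and 1.59% ± 0.112 (n = 3) in the adult samples. *Dcn* and *Chad* carried the increase: without them the sum was 4030 ± 217 TPM and 4940 ± 734 TPM (SD, n = 3 each), a ratio of 1.23.

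The makeup of the pool also differed between the stages. *Bgn* and *Fmod* held 64.0% ± 1.87 of it (SD, n = 3) in the embryonic samples and 21.8% ± 3.82 in the adult samples, while *Dcn* and *Chad* went from 8.71% ± 0.67 to 69.1% ± 3.01. *Aspn*, *Lum*, *Epyc* and *Ogn* together went from 19.8% ± 1.76 to 0.806% ± 0.317. *Prelp* rose with the pool and kept a share of 7.35% and 7.76%. By class, the summed TPM of class I was 3.23 times the embryonic level in adult cells and that of class II 1.84 times, and class III went from 361 ± 24.5 to 18.1 ± 13.2 TPM.

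**Figure D3:**
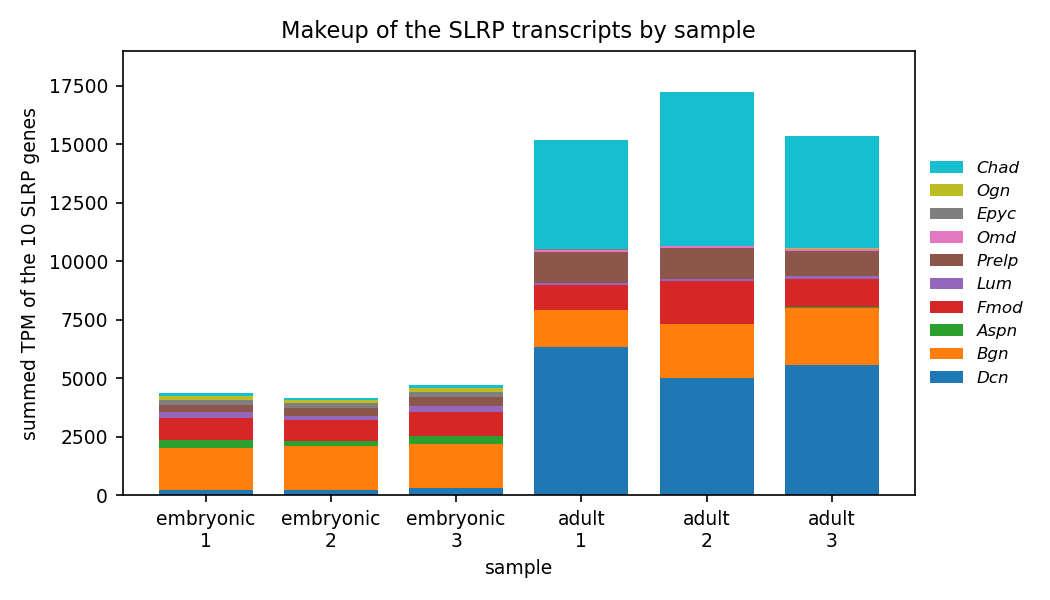
Stacked bars give the TPM of each SLRP gene in each of the 6 samples, so that the bar height is the summed TPM of the 10 genes. Embryonic bars reach 4175 to 4697 TPM and are mostly *Bgn* and *Fmod*, and adult bars reach 15188 to 17217 TPM and are mostly *Dcn* and *Chad*.

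The order of the levels differed accordingly. In the embryonic samples *Bgn* stood first and *Fmod* next, each clear of its neighbour, followed by *Prelp*, *Aspn*, *Dcn*, *Lum* and *Epyc*, whose neighbouring ranges overlapped, then by *Ogn* and *Chad*, which overlapped with each other, and last by *Omd*. In the adult samples *Dcn* and *Chad* overlapped at the top, *Bgn*, *Fmod* and *Prelp* formed a group of overlapping neighbours, *Lum* and *Omd* overlapped at a lower level, and *Ogn*, *Aspn* and *Epyc* came last with overlapping neighbours. The spread between samples was 0.18 (median SD of log2 values over the 10 genes) in the embryonic and 0.38 in the adult samples, against 0.26 and 0.35 over all genes tested.

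Within each sample, 5 ratios between SLRP genes were computed as differences of log2(TPM + 1) values. With 3 samples against 3, an exact two-sided permutation test cannot go below p = 0.1, and each of the 5 ratios gave p = 0.1, which adjusted over the 5 is 0.1. *Bgn* over *Dcn*, the closely related class I pair, had a log2 ratio of 3.07, 2.95 and 2.53 in the embryonic and of -2.03, -1.14 and -1.17 in the adult samples, so that the more abundant partner was *Bgn* in every embryonic and *Dcn* in every adult sample. *Aspn* over *Dcn*, which bind TGF-β and collagen alike, went from a mean of 0.09 ± 0.39 (SD, n = 3) to -9.59 ± 1.21. *Lum* over *Fmod*, which share a collagen site, went from -2.02 ± 0.10 to -3.76 ± 0.56, so that *Fmod* was the more abundant in all 6 samples. *Ogn* over *Omd* went from 4.44 ± 0.81 to -2.66 ± 0.69 and changed sign. *Ogn* over *Epyc*, the class III pair, went from -0.50 ± 0.30 to 2.38 ± 0.68. Because *Epyc* is near 0 in adult cells, the size of this last change depended on the pseudocount, at 2.88 with a pseudocount of 1 and 4.11 with 0.1.

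SLRP genes lie next to each other on 3 chromosomes, and 8 of the 10 are in these clusters, with *Chad* on chromosome 11 and *Bgn* on X alone. On chromosome 13, *Ecm2* (an SLRP relative that is not among the 10), *Aspn*, *Omd* and *Ogn* follow each other within 119.7 kb on the plus strand, separated by 11653, 14896 and 15223 bases. Neighbours differed in direction along the whole row: *Ecm2* rose by 2.30, *Aspn* fell by 5.24, *Omd* rose by 3.74 and *Ogn* fell by 3.37 (log2; limma, all with an adjusted p of 0.000238 or lower). On chromosome 10, *Dcn* rose by 4.44, while *Lum* fell by 1.25, *Kera* (keratocan, not among the 10) fell by 3.93 and *Epyc* fell by 6.25 over a span of 202.8 kb. On chromosome 1, *Prelp* rose by 1.92 while the log2 differences of *Optc* (opticin, not among the 10) and *Fmod* were 0.74 and 0.49 and did not pass (limma, adjusted p = 0.342 and 0.0678). The only other protein-coding gene within the spans is *Cenpp* on the opposite strand of the chromosome 13 row, which shares 7 exonic bases with *Aspn* and 0 with *Omd*, *Ogn* and *Ecm2*, and stood at 9.3 to 11.95 TPM in the embryonic and 1.733 to 7.145 TPM in the adult samples.

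**Figure D4:**
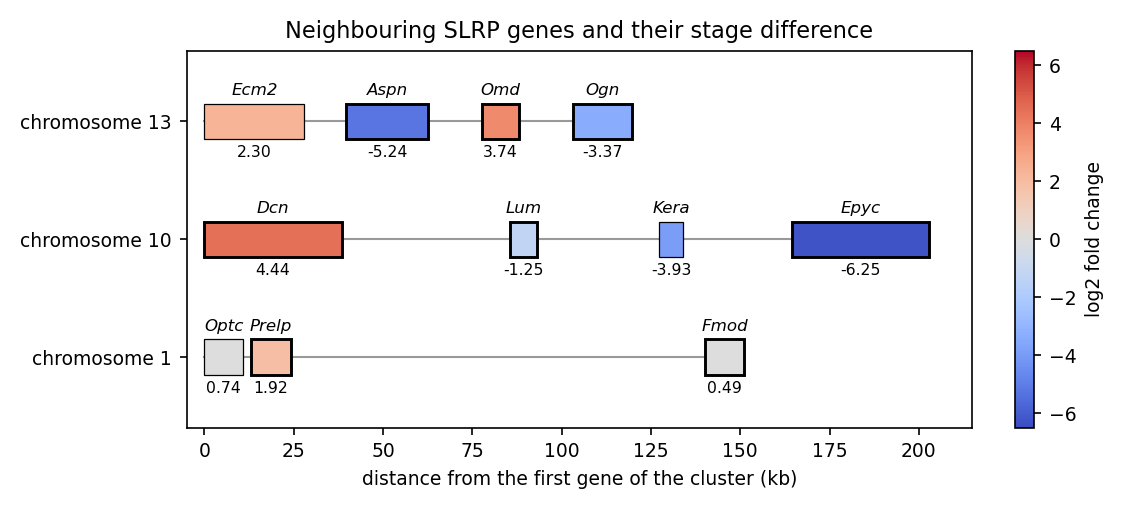
Genes of the 3 SLRP clusters drawn to scale by distance in kb from the first gene of each, with the log2 fold change (adult minus embryonic) under each gene. Genes with an adjusted p under 0.05 are coloured by that value, and *Fmod* and *Optc*, which did not pass, are grey. Thick outlines mark the 8 genes of the family and thin ones *Ecm2*, *Kera* and *Optc*. On chromosome 13 the values alternate in sign (2.30, -5.24, 3.74, -3.37), and on chromosome 10 *Dcn* is positive and its 3 neighbours negative.

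The sequences before the starts of the chromosome 13 neighbours, which went in opposite directions, and of *Chad* and *Epyc*, which had the largest rise and fall, were set side by side. RefSeq windows (GRCm38.p6) were matched for 8 of the 10 genes by symbol, and the 250 bases before the annotated start were searched on both strands for TATAAA, the core of a TATA box, and for AACAAT or AACAAAG, cores bound by SOX factors. Capitals mark a match in either orientation. The windows are chr13:49544193-49544442 for *Aspn*, chr13:49582212-49582461 for *Omd*, chr13:49607765-49608014 for *Ogn*, chr11:94564797-94565046 for *Chad* and chr10:97643818-97644067 for *Epyc*, all on the plus strand and given 5′ to 3′.
Aspn: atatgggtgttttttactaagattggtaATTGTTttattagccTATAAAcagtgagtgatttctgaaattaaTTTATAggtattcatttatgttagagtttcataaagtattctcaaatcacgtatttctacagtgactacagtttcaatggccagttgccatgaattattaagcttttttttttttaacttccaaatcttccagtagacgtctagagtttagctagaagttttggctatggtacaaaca
Omd: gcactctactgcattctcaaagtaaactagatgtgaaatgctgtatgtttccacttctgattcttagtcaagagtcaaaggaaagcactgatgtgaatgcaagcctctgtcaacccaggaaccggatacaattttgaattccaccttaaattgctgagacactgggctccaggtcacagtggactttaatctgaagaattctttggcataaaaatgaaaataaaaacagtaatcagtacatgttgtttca
Ogn: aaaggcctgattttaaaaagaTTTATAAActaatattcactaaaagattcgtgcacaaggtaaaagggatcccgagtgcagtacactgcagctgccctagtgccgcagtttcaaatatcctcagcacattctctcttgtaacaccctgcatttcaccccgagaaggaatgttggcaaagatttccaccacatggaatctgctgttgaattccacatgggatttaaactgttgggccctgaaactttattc
Chad: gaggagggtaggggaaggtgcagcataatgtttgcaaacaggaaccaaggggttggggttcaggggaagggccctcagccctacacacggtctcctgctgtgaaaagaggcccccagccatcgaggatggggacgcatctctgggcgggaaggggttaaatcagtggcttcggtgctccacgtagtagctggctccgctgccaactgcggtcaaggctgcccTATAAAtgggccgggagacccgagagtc
Epyc: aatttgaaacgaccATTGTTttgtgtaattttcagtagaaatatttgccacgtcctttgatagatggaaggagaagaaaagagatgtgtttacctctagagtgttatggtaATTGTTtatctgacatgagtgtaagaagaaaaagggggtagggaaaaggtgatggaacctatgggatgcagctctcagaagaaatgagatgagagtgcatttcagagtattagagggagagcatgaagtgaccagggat

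*Chad* held TATAAA 28 bases before its start, where a TATA box usually lies, and had 10 CG dinucleotides, against a median of 6 over all windows. *Aspn* held TATAAA as written at 207 and in the complement at 178 bases before the start, and *Ogn* held a pair of overlapping matches in both orientations at 229 and 227. TATAAA was found in 12.4% of all 32851 windows of this length. A SOX core was found in *Aspn* at 222 and in *Epyc* at 236 and 139 bases before the start, against 13.8% of all windows, and *Epyc* has a second annotated start whose window held 3 more. *Prelp*, which rose, also held a SOX core, 127 bases before its start. *Omd* held neither motif, and *Aspn*, *Omd*, *Ogn* and *Epyc* had 2, 1, 4 and 2 CG dinucleotides. A match describes letters and is not evidence of binding.

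Other members of the wider SLRP family were few and mostly low. Of 8 listed, 6 were tested: *Ecm2* was higher in adult, at 20.7, 17.0 and 26.7 TPM and then 112, 120 and 94.2 TPM, while *Kera*, *Podn* and *Chadl* were lower, with log2 differences of -3.93, -2.36 and -0.97, and *Optc* and *Tsku* did not pass. *Chadl*, a relative of chondroadherin, stood at 118 to 120 TPM in the embryonic and 37.3 to 83.7 TPM in the adult samples, the opposite direction to *Chad*.

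Enzymes that build the chains carried by SLRPs were counted next. Counts of called genes in the related lists and marker lists stand beside 23.9% of all genes tested called higher and 21.4% called lower. Of 21 tested genes for chondroitin and dermatan sulfate, 6 were higher, 6 lower and 9 did not pass, and their summed level was 972 to 1001 TPM in embryonic and 1337 to 1618 TPM in adult samples. *Chst12*, a chondroitin 4-O-sulfotransferase, rose from 2.36, 3.92 and 3.06 TPM to 157, 203 and 98.2 TPM, a log2 difference of 5.18 (limma, adjusted p = 5.69e-06), and *Csgalnact2*, which starts chondroitin chains, rose by 2.18. *Chsy1*, a polymerase of the chain, fell by 1.84 and *Chst15* fell by 1.34. For keratan sulfate, carried by fibromodulin, lumican and osteoadherin, 2 of 7 tested genes were higher, 1 was lower and 4 did not pass, with *Chst5* at 2.53, *Fut8* at 1.23 and *B4galt1* at -2.23 on the log2 scale.

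Among 17 ligands and receptors that SLRPs bind, 5 were higher, 8 lower and 4 did not pass. *Tlr4* and *Tlr2*, receptors for biglycan and decorin released from the matrix, rose by 2.87 and 2.53 on the log2 scale, *Tlr2* from 35.1 to 39.8 TPM up to 177 to 244 TPM. *Ccn4*, whose product binds decorin and biglycan and which is listed under its older symbol *Wisp1*, fell by 4.47, and *Bmp4*, a ligand bound by biglycan, fell by 2.97. The TGF-β genes, picked out after their values were seen, differed in direction, with *Tgfb1* at 1.31, *Tgfb2* at -2.12 and *Tgfb3* at -2.37 (log2; limma, adjusted p = 0.000156, 0.000897 and 3.68e-05).

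Proteases that can cut SLRPs summed to 1087 to 1197 TPM in embryonic and 5164 to 8949 TPM in adult samples, and of 10 tested 4 were higher, 3 lower and 3 did not pass. *Mmp3*, stromelysin-1, made up most of the adult sum, going from 7.76, 7.58 and 13.2 TPM to 6516, 4182 and 7697 TPM, a log2 difference of 9.19 (limma, adjusted p = 1.1e-07). *Mmp13*, *Adamts5* and *Htra1* rose by 4.28, 2.39 and 1.17. *Mmp14* and *Adamts4* fell by 2.25 and 2.20, and *Bmp1*, which removes the propeptide of biglycan, fell by 1.71.

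The summed level of the collagens on which SLRPs sit was lower in adult. That of the SLRP pool was higher, an increase carried by *Dcn* and *Chad*, while *Aspn*, *Lum*, *Epyc* and *Ogn* fell. Of 16 collagen genes 13 were lower in adult, 1 was higher and 2 did not pass, and their summed level went from 43335 to 47839 TPM in the embryonic samples to 11619 to 14947 TPM in the adult samples. The lists overlap: *Col2a1*, *Col9a1*, *Col9a2*, *Col9a3* and *Col11a2* are also chondrocyte markers, and *Col1a1*, *Col1a2* and *Col3a1* are also tendon and fibroblast markers. *Col9a1*, of a collagen that coats type II fibrils, fell by 5.48, *Col14a1*, a fibril-associated collagen of soft connective tissue, fell by 4.79, and *Col6a3*, of the pericellular collagen bound by decorin and biglycan, rose by 0.63 (limma, adjusted p = 0.00958).

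**Figure D5:**
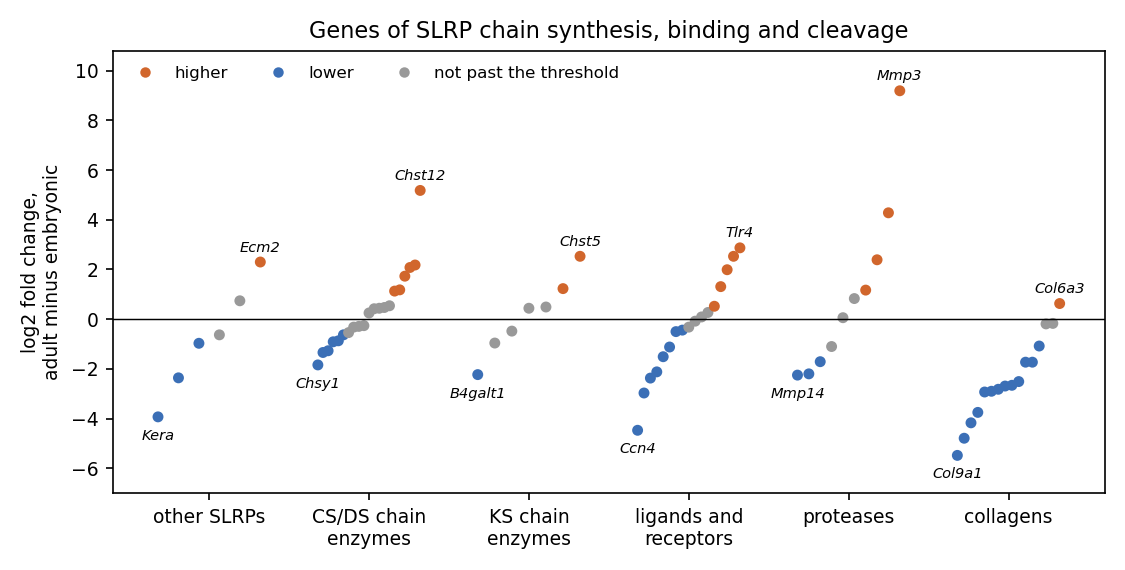
Each point is a tested gene of 1 of 6 lists (columns), placed by its log2 fold change (adult minus embryonic) and coloured by whether it passed an adjusted p of 0.05 in limma. The collagen column holds 13 lower genes of 16, while the columns of chain enzymes, ligands and receptors, and proteases hold genes on both sides, up to *Mmp3* at 9.19.

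For each called SLRP gene the gene with the most similar levels was found by Euclidean distance on log2(TPM + 1) over the 6 samples among 13094 genes. *Prelp* lay closest to *Pkm* (pyruvate kinase, distance 0.27), *Lum* to *Tra2b* (0.41) and *Omd* to *Uap1l1* (0.48). *Aspn* lay closest to *Col14a1* (1.04), which stood at 222, 209 and 230 TPM and then at 2.83, 6.85 and 16.1 TPM. *Ogn* lay closest to *Tpx2* (0.85), *Dcn* to *Hmox1* (1.71) and *Epyc* to *Filip1l* (1.77). *Chad* was the most isolated, with *Serpine2* nearest at a distance of 2.20, at 153 to 177 TPM in embryonic and 2200 to 2444 TPM in adult samples. These distances describe likeness over 2 stages of 3 samples each and carry no test.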

How the data were processed

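RNA was sequenced from 3 embryonic and 3 adult samples, which the design text calls biological replicates. Per the labels and the study's methods, reads were quantified with RSEM on GRCm38, and the authors deposited log2 values of TPM plus 1 per Ensembl gene in 1 table. The library protocol is given as a Kapa mRNA-Seq kit in the labels and as random and poly(T) priming with 50-base single-end reads in the methods; strand is not given in the sources used here. Symbols and positions came from GENCODE, and 21902 of 22032 identifiers matched.

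Genes averaging 1 TPM or more over the 6 samples were tested in limma 3.58.1 (R 4.3.3; moderated test with trend, pseudocount 1, Benjamini-Hochberg adjusted p under 0.05), after tests on simulated data. Tables and figures were made in Python 3.11.15, and shared stretches between transcripts were sought with BLAST+ 2.17.0. The study's own differential test needs counts and was not used here. The 10 genes, the related lists and the marker lists were chosen with earlier results of these data known. All 10 genes were named, and of lists of related genes longer than 10, the 2 largest rises and falls. Genes named from the marker lists were picked after their values were seen. Alternatives covered the pseudocount, the filter, 3 scalings, the variance model, a replicate block, the threshold and each sample left out. The 20 highest genes held 10.7% to 17.7% of all TPM, so their change alters the scale of all other genes.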

Additional observations from a re-analysis of the deposited data

How the results depend on the processing

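Each of the 8 called SLRP genes kept its direction and its call under all 16 alternatives. *Fmod* passed the threshold under 3 of them, at a log2 difference of 0.74 with quantile normalization (limma, adjusted p = 0.0157), 0.59 when rescaled without the 20 highest genes (0.0378), and 0.65 when adult replicate 1 was left out (0.0244). Over the samples left out in turn it ranged from 0.26 to 0.65, and *Bgn* from 0.02 to 0.35. *Bgn* passed without adult replicate 1 only, where 6 SLRP genes in place of 4 were called higher, and its difference was 0 to 2 decimals, just below zero, under median-of-ratios scaling (adjusted p = 0.994). The scaling moved the median log2 change of all genes from 0.16 to 0.03 (median-of-ratios) or 0.25 (the 20 highest genes left out), and the share of calls that were higher from 52.8% to 44.7% and 58.1%.

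Over all genes, 5949 were called, and 3718 at an adjusted p under 0.01, which is the tighter threshold itself. With the replicate number as a block, 2871 genes were higher and 2559 lower. Samples of the same number did not deviate together over the genes tested (r = -0.01, -0.02 and -0.02), and the main fit treats them as unpaired. These values cannot exclude a link between samples that affects only some genes. The exact permutation tests of the ratios could not pass at 3 samples a stage and say nothing of stability. TPM keeps no read depth, and the counting error of values near 0, such as *Epyc* in adult cells, was not estimated. With a pseudocount of 0.1 its log2 difference was -7.57.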

Other observations

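The 4 SLRP genes that fell were each highest in adult sample 3 among the adult samples (4 of 4), and none of the 4 that rose was highest there. How often this held among all genes tested was not counted, so it is not shown to be particular to these genes. Leaving out adult replicate 3 gave log2 differences of -5.92 for *Aspn*, -3.87 for *Ogn*, -6.81 for *Epyc* and -1.44 for *Lum*, against -5.51 for *Epyc* without adult replicate 2. Adult sample 3 also had the highest summed level of the tendon and fibroblast list among the adult samples (2415 TPM) and of the osteoblast list (458 TPM), and the lowest of the chondrocyte list (9578 TPM). Genes of a list did not all follow its sum. Among the adult samples *Col1a1*, *Col1a2* and *Col3a1* were highest in sample 3, but *Scx*, *Tnmd* and *Mkx* in sample 2. *Comp* and *Col11a2* were lowest in sample 3, but *Col2a1* and *Col9a1* in sample 2. The part of these lists in the values of the SLRP genes was not tested.

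The transcripts of *Dcn*, *Aspn*, *Fmod*, *Lum*, *Ogn* and *Chad* shared no stretch of 50 bases with another gene's transcripts. For *Omd* 63 bases of 1 transcript were shared with 3 other genes, and for *Bgn* 58 bases of 1 of its 8 transcripts, a simple repeat, were shared with 476 genes.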
